A study of Mus musculus with 6 samples.

Results

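The organic anion and cation transporter genes described here are 9 members of the Slc22a family: Slc22a2, Slc22a3, Slc22a4, Slc22a5, Slc22a6, Slc22a7, Slc22a8, Slc22a12 and Slc22a13. They were chosen by name out of 21757 protein-coding genes of the GENCODE M39 annotation of GRCm39. Each gene was given a region from 3 kb upstream of its start to its end, and every accessible interval that overlapped this region was counted. This gave 76 distinct intervals with 252 summits, out of 279569 intervals and 749750 summits in the whole list. No interval was counted for more than 1 of the 9 genes.

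Accessibility was measured by ATAC-seq, in which the Tn5 transposase cuts DNA that is not covered by nucleosomes. Kidney cortex gave 3 libraries labelled WT and 3 labelled as a tubule-specific knockout of Acly (Acly cKO), all with the treatment label Control. By the methods, the Acly cKO mice carried Acly fl/fl and Ksp-Cre (Cdh16-Cre), which recombines in the epithelium of proximal tubules, distal tubules and collecting ducts, and controls were Acly fl/fl littermates without Cre. Acly encodes ATP citrate lyase, which makes acetyl-CoA from citrate. The labels give no age. The study counts further WT libraries that were deposited earlier and are not among those labelled here. The labels place WT in batches 1 and 2 and Acly cKO in batches 4 and 5, and no batch holds both, so an effect of genotype and one of batch cannot be told apart.

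The values come from a single peak call on libraries pooled under the name ALL. Which libraries entered the pool is not stated, nor whether the earlier WT libraries did. No column belongs to a single library. Depth per library is therefore unknown, no value has a replicate error, no test was possible, and no comparison of the genotypes was made. In bulk tissue, moderate accessibility in many cells and high accessibility in few cells cannot be told apart either, so none of the values is a level per tubule cell. Each interval has the fold enrichment of its highest summit, which is the read pileup there over the background that the peak caller estimated, and a -log10 q. Each fold enrichment in the list went with 1 -log10 q, so both order the intervals alike.

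Transporters of the Slc22a family are proteins of the plasma membrane that move charged or zwitterionic solutes. In the proximal tubule, organic anion and cation transporters on the basolateral side take drugs, toxins and metabolic waste from the blood into the cell, and exporters on the apical side pass them into the urine. Other family members work at the apical side and recover solutes such as urate and carnitine from the filtrate. Several of the genes lie next to each other in pairs and clusters.

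In the pooled list, 8 of the 9 genes had an interval over the gene start, against 68.4% of all protein-coding genes. Slc22a8 was the exception. These start intervals were low, with a median of 8.22-fold against 31.6-fold over all 14878 genes with a start interval, and Slc22a5 alone was above that median. At 6 genes the strongest interval was not the one over the start. It was 14.7-fold in intron 2 of Slc22a2, 5.24-fold in intron 5 of Slc22a3, 10.3-fold in exon 4 of Slc22a7 and 14.3-fold in intron 3 of Slc22a8. Upstream of Slc22a12 it was 18.3-fold, and just past the end of Slc22a13 it was 17.8-fold.

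The 100 bases before each gene start are shown because the starts differ in their content of CpG, a dinucleotide that is dense at the promoters of widely expressed genes. They were read from GRCm39 on the strand of the gene, and CpG dinucleotides are in capitals.
Slc22a2, chr17:12802919-12803018, plus strand: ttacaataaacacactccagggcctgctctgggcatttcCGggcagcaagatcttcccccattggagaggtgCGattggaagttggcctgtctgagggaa
Slc22a3, chr17:12726615-12726714, minus strand: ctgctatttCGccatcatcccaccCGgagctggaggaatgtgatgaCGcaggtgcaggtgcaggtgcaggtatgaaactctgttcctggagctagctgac
Slc22a4, chr11:53919806-53919905, minus strand: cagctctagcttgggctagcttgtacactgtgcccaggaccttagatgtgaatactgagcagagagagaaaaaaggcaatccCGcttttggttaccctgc
Slc22a5, chr11:53782704-53782803, minus strand: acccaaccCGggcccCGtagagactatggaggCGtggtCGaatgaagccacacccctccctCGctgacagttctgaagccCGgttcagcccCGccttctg
Slc22a6, chr19:8595256-8595355, plus strand: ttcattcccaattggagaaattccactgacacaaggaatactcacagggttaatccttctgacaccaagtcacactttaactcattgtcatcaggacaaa
Slc22a7, chr17:46749408-46749507, minus strand: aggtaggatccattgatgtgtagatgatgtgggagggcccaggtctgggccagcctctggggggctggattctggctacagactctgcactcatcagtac
Slc22a8, chr19:8568376-8568475, plus strand: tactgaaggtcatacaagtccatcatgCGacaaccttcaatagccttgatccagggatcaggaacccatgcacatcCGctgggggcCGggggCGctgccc
Slc22a12, chr19:6593063-6593162, minus strand: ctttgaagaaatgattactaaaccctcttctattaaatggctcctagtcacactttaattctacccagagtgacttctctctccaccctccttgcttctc
Slc22a13, chr9:119038165-119038264, minus strand: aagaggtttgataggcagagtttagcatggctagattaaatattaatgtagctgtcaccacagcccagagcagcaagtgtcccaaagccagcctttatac
Of these stretches, that of Slc22a5 held 7 CpG dinucleotides, the most of the 9. Those of Slc22a6, Slc22a7, Slc22a12 and Slc22a13 held 0. In 250 bases before to 50 after the start, the observed over expected CpG ratio was 0.63 at Slc22a5 and 0.41 or less at the others, with 0.00 at Slc22a7 and Slc22a13. With a limit of 0.6, 8 of the 9 starts were CpG-poor, against 63.4% of all protein-coding genes.

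For the 6 genes whose strongest interval lay away from the start, 81 bases around the highest summit of that interval are shown, on the strand of the gene, with the summit base in capitals.
Slc22a2, chr17:12810295-12810375, plus strand: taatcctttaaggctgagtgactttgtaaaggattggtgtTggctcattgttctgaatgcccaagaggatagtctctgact
Slc22a3, chr17:12665777-12665857, minus strand: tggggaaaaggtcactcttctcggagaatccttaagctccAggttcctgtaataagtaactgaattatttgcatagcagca
Slc22a7, chr17:46747816-46747896, minus strand: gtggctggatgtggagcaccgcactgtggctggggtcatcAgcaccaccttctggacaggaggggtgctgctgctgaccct
Slc22a8, chr19:8582619-8582699, plus strand: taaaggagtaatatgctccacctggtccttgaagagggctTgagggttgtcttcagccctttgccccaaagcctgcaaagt
Slc22a12, chr19:6596288-6596368, minus strand: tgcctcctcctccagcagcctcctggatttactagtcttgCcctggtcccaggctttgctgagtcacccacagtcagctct
Slc22a13, chr9:119021431-119021511, minus strand: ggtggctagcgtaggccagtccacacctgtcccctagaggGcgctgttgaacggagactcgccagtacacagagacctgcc
Within 100 bases of these summits the CpG ratio was between 0.00 at Slc22a8 and 0.27 at Slc22a3. The ratio around the summits of all intervals was not computed, so whether these values are unusual is not known. Summits may also lie off the cuts, as described with the processing.

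The genes of the organic cation transporters are neighbours on chromosome 17. Slc22a2 (ENSMUSG00000040966.12, chr17:12803019-12847375, plus strand) encodes OCT2, the basolateral transporter that takes organic cations such as metformin and creatinine into the proximal tubule cell. Its region held 11 intervals, of which 4 reached 5-fold. The interval over the start was 13.8-fold with a -log10 q of 161, and its highest summit lay 39 bp into exon 1. This interval was 4729 bp wide, with 13 summits, and a further summit of 8.71-fold lay 3043 bp into the gene, in intron 2. The strongest interval was 14.7-fold, 7316 bp into the gene in intron 2, and thus close in height to that over the start. The next were 8.12-fold at 4940 bp and 5.24-fold at 13486 bp, both also in intron 2. All 4 intervals of 5-fold or more therefore lay over the start or in intron 2.

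Slc22a3 (ENSMUSG00000023828.5, chr17:12637847-12726614, minus strand) encodes OCT3, a transporter of monoamines and other organic cations with a wide tissue distribution. It was the longest of the 9 genes, at 88768 bp, and had the smallest share of its region in intervals, 2.96%. The interval over its start was 4.06-fold with a -log10 q of 18.3, with its highest summit 377 bp into exon 1. The strongest of its 6 intervals was 5.24-fold, 60797 bp into the gene in intron 5, and the only one to reach 5-fold. The others were 4.19-fold at 62956 bp in intron 5, 4.06-fold at 47485 bp in intron 2, 2.62-fold in intron 1 and 2.36-fold in intron 5. Between the start interval and the next one, at 39505 bp, no interval was called, as the panels of fold enrichment against distance show.

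**Figure D1:**
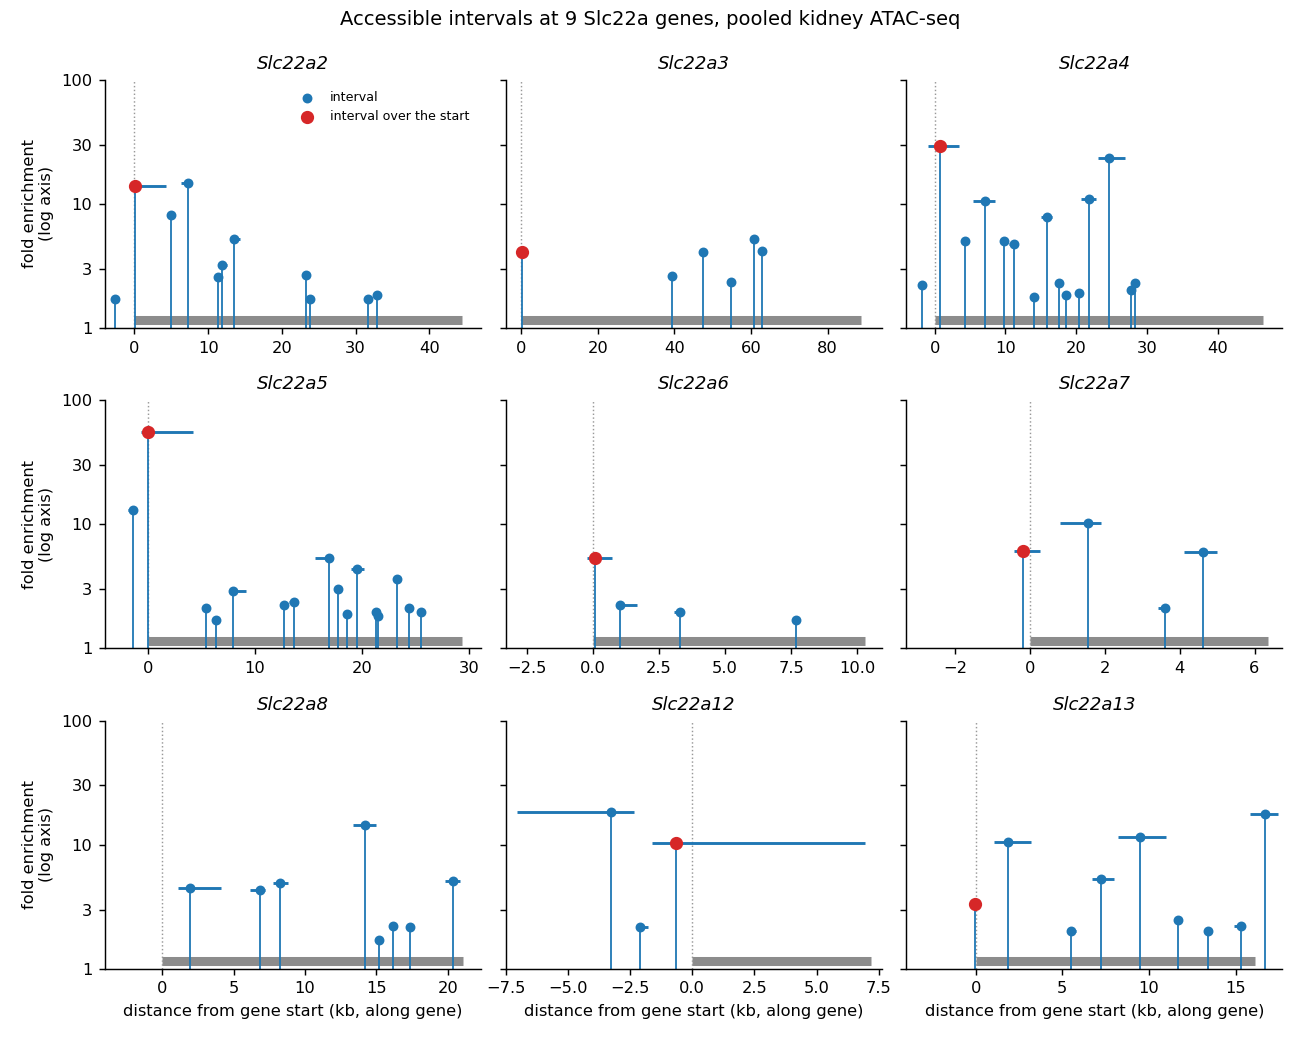
Fold enrichment of every interval (log axis) against the distance of its highest summit from the gene start in kb along the gene, for each of the 9 genes. Horizontal bars are the width of the interval, grey bars the gene, and red points the interval over the start. Slc22a8 has no red point, Slc22a5 has the highest at 55.6-fold, and at Slc22a12 a single interval of 8562 bp spans nearly the whole gene.

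The carnitine and ergothioneine transporters had the most intervals and the strongest starts. Slc22a5 (ENSMUSG00000018900.9, chr11:53753315-53782703, minus strand) encodes OCTN2, which recovers carnitine from the filtrate. Carnitine carries long-chain fatty acids into mitochondria, where proximal tubule cells burn them for energy. The interval over the Slc22a5 start was 55.6-fold with a -log10 q of 1142, the highest of all 76, and its summit lay 27 bp from the start. Among all genes with a start interval it was above 80.9%, and among those with a CpG-rich start above 73.2%. The interval was 4853 bp wide and ran into intron 1, where a further summit of 14.9-fold lay 2591 bp into the gene. The next interval was 13.1-fold, 1358 bp upstream. Of the remaining 14 intervals only 1 reached 5-fold, at 5.30-fold in exon 4, and the median over all 16 was 2.3-fold. Slc22a5 thus had a single dominant start and many low intervals.

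Slc22a4 (ENSMUSG00000020334.8, chr11:53873433-53919805, minus strand) encodes OCTN1, a transporter of the antioxidant ergothioneine. At its start stood an interval of 29.2-fold with a -log10 q of 478. Its highest summit lay 770 bp into the gene, in exon 1, and summits of 15.4-fold and 14.7-fold lay nearer to the start, at 195 and 342 bp. The second interval was 23.4-fold, 24582 bp into the gene in intron 3, with 10 summits over 3873 bp. It was followed by 10.9-fold in intron 2 and 10.6-fold and 7.79-fold in intron 1. In all, 6 of 15 intervals reached 5-fold, the most of any of the 9 genes, and 9 of the 15 had their highest summit in intron 1. Unlike Slc22a5, the gene had strong intervals both over the start and well inside it. The annotation lists 15 transcripts with 13 distinct starts over 21015 bp, and all 13 lay in an interval. At Slc22a5, 14 of 15 distinct starts did. Several starts can lie in 1 interval, so these are not counts of separately open starts. The share was not computed over all genes, so whether these counts are unusual is not known.

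The organic anion transporters had low or absent start intervals. Slc22a6 (ENSMUSG00000024650.7, chr19:8595356-8605663, plus strand) encodes OAT1, the basolateral exchanger that takes up organic anions such as para-aminohippurate. Its start was covered by an interval of 5.30-fold with a -log10 q of 31.5, the strongest at this gene, with its highest summit 69 bp into exon 1. The other 3 intervals were 2.23-fold in intron 1, 1.96-fold in exon 4 and 1.70-fold in exon 9. The last equals the lowest fold enrichment of the whole list. Only Slc22a3, at 5.24-fold, had a lower strongest interval.

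Slc22a8 (ENSMUSG00000063796.11, chr19:8568476-8589541, plus strand) encodes OAT3, the other main basolateral uptake transporter for organic anions and many drugs. No interval covered its start. The nearest began 1082 bp into the gene and was 4.45-fold, with 9 summits over 3005 bp of intron 1, exon 2 and intron 2. The annotation lists 31 transcripts of this gene with 11 distinct starts within 175 bp, and none of these starts lay in an interval. The summit list before the removal of blacklisted regions also held no summit within 1 kb of the start, and 99.9% of the 31-base words within 500 bp of the start occurred once in the genome. The strongest interval was 14.3-fold with a -log10 q of 169, 14183 bp into the gene in intron 3. It was followed by 5.11-fold in exon 11, the last exon, and by 4.91-fold and 4.32-fold in intron 2. Across all protein-coding genes, 5581 (25.7%) had no interval within 1 kb of the start. Of these, 1932 had an interval elsewhere in the region and 675 had one of at least 10-fold, as Slc22a8 did.

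Slc22a7 (ENSMUSG00000067144.9, chr17:46743044-46749407, minus strand) encodes OAT2, a transporter of organic anions and nucleobases. A start interval of 6.09-fold was called, with a -log10 q of 40.9 and its only summit 186 bp upstream. The strongest interval was 10.3-fold, 1551 bp into the gene in exon 4. It also covered the start of a shorter annotated transcript of Slc22a7, 852 bp into the gene, and that of Gm36541, an lncRNA gene on the opposite strand, so that accessibility there cannot be given to 1 of the 2 genes. The others were 5.96-fold in intron 7 and 2.10-fold in intron 5. At this short gene 3 of the 4 intervals thus reached 5-fold, and the median was 6.02-fold.

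At both urate transporter genes the highest summit lay outside the gene. Slc22a12 (ENSMUSG00000061742.13, chr19:6585875-6593062, minus strand) encodes URAT1, the apical exchanger that recovers urate from the filtrate. The interval over its start, chr19:6586117-6594678, was 8562 bp wide and held 29 summits. It was the widest of the 76, whose median width was 530 bp. Its highest summit was 10.3-fold, 666 bp upstream, and the summits nearest to the start were 7.53-fold at 88 bp upstream and 6.68-fold at 71 bp into exon 1. Within the gene 24 summits were called. The strongest interval that overlapped the region was 18.3-fold, with its highest summit 3266 bp upstream and a further summit of 15.2-fold at 5645 bp upstream, both beyond the 3 kb limit of the region. Intervals covered 94.5% of the region of Slc22a12, more than in 97.2% of all protein-coding genes. The gene lies inside the annotated span of Nrxn2, a gene of a synaptic adhesion protein on the plus strand, and Nrxn2 overlaps the start interval. The 2 genes cannot be told apart in unstranded ATAC-seq data.

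Slc22a13 (ENSMUSG00000074028.5, chr9:119022040-119038164, minus strand) encodes OAT10, an apical transporter of nicotinate and urate. Over its start the fold enrichment was 3.34 with a -log10 q of 11.8, the lowest of the 8 start intervals, and the highest summit lay 38 bp upstream. Of the 31-base words within 500 bp of this start, 69.7% occurred once in the genome, the lowest share of the 9 genes, and only uniquely mapped reads were kept. What part this had in the low value was not tested. The strongest interval was 17.8-fold, 16693 bp from the start and just downstream of the gene end. In intron 1, intervals of 11.5-fold at 9470 bp, 10.6-fold at 1883 bp and 5.30-fold at 7257 bp were called. Slc22a13 thus had 4 of 9 intervals at or above 5-fold, none of them over the start.

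Over all 76 intervals, the highest summit lay in an intron in 55, of which 20 were in intron 1 and 35 in a later intron. It lay in an exon in 11, upstream of the gene in 8, downstream in 1, and between the gene start and the start of the canonical transcript in 1. These places were not counted for the regions of all protein-coding genes, so whether the shares are particular to these genes is not known. The fold enrichment ran from 1.70 to 55.6 with a median of 3.11, against 2.55 over all intervals. A value of 5-fold was reached by 26 intervals (34.2%), against 24.5% of all intervals. The members were taken by gene region, while the list of all intervals also holds those between genes. The shares were not compared at like positions. At 37 of the 76 the value was under 3-fold, and the median over all intervals was itself under this value. The share at 5-fold was 5 of 17 for the cation transporters and 9 of 31 for the carnitine and ergothioneine transporters. It was 6 of 16 for the anion transporters and 6 of 12 for the urate transporters. Of these 6 urate intervals, that of 18.3-fold at Slc22a12 and that of 17.8-fold at Slc22a13 had their highest summits outside the regions. The 17.8-fold interval was also shared with the region of Slc22a14.

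At least 1 interval was found in all 9 regions, against 83.2% of protein-coding genes. The median was 3.04 intervals per 10 kb against 1.86 over all genes, and a median of 34.9% of the region was covered against 16.7%. Slc22a5, at 4.94 intervals per 10 kb, was above 90.8% of genes, and Slc22a13, at 4.71, above 88.9%. Slc22a3, at 0.654, was above 26.3%. The strongest interval had a median of 14.7-fold, against 30.8-fold over the genes with any interval.

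A start interval of at least 5-fold was found in 6 of the 9 genes, against 61.7% of all genes. In order, the start values were 55.6-fold at Slc22a5, 29.2-fold at Slc22a4, 13.8-fold at Slc22a2, 10.3-fold at Slc22a12, 6.09-fold at Slc22a7, 5.30-fold at Slc22a6, 4.06-fold at Slc22a3 and 3.34-fold at Slc22a13. With no replicate error, whether neighbours in this order differ could not be tested. CpG-poor starts were lower in general. An interval covered 52.3% of CpG-poor and 96.2% of CpG-rich starts, with medians of 21.7-fold and 39.9-fold. Among CpG-poor starts with an interval, Slc22a4 was above 61.5%, Slc22a2 above 37.3% and Slc22a12 above 30.8%, and the other 4 were above 20.8% or fewer. Only Slc22a4 and Slc22a5 were above the CpG-poor median.

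**Figure D2:**
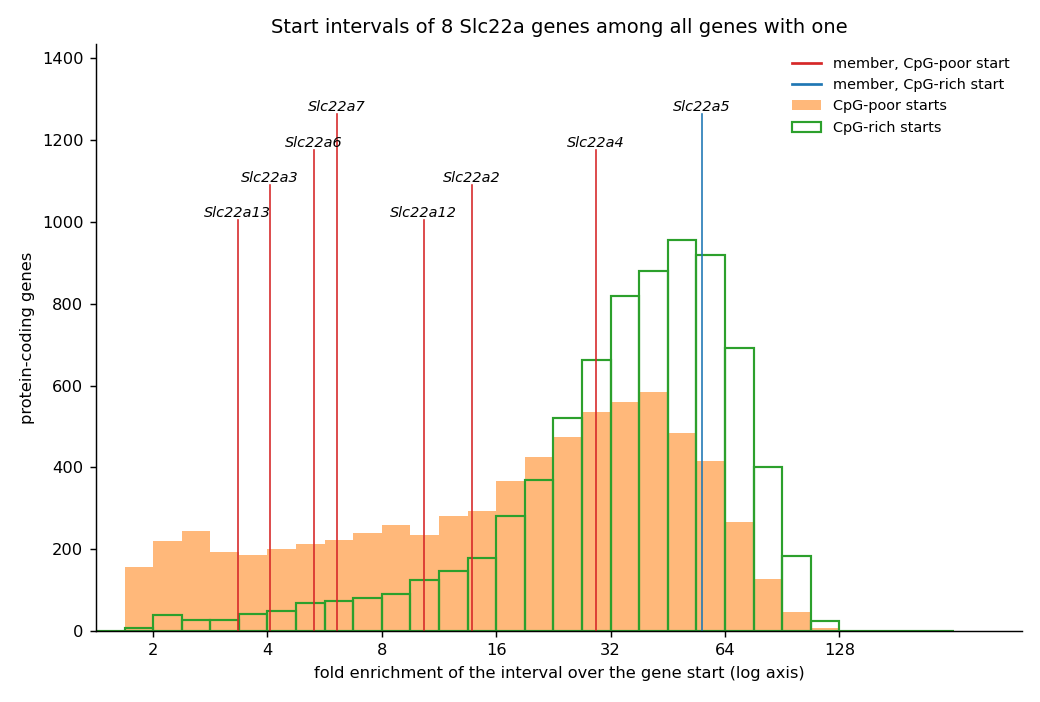
Number of protein-coding genes (vertical axis) by the fold enrichment of the interval over their start (log axis), for CpG-poor (filled) and CpG-rich (outlined) starts, with the 8 Slc22a genes that have such an interval as lines. Of the CpG-poor members, Slc22a4 alone stands above the CpG-poor median of 21.7-fold, and Slc22a5 stands at 55.6-fold among the CpG-rich starts.

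The strongest interval was the one over the start in 3 of the 9 genes, Slc22a4, Slc22a5 and Slc22a6, against 63.7% of the genes with any interval. The strongest intervals of Slc22a12 and Slc22a13 overlapped the regions, but their highest summits lay outside them. When only intervals with their highest summit in the region were counted, a choice made after the data were seen, the number was 4 of the 9 genes, with Slc22a12 added at 10.3-fold, against 66.0% of genes. The strongest interval of Slc22a13 was then 11.5-fold, again away from the start, and the median over the 9 genes was 11.5-fold in place of 14.7-fold. Among the genes with a start interval, the gap was widest at Slc22a13, with 3.34-fold over the start and 17.8-fold elsewhere, and small at Slc22a2, with 13.8-fold and 14.7-fold.

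HNF1 and HNF4 factors, which are known to drive genes of the proximal tubule and liver, have recognition sequences that were searched as letters on both strands. The HNF1 consensus was GTTAAT and ATTAAC with 1 free base between them, with up to 2 mismatches, and the HNF4 consensus was CAAAGTCCA with up to 1 mismatch. At the starts, from 250 bases before to 50 after, HNF1 matched in 0 of the 9 genes, against 1.39% of all protein-coding genes. HNF4 matched in 2, Slc22a3 and Slc22a7, against 9.06%. The matches are shown on the strand of the gene with the matching bases in capitals, because they are the only ones at the starts.
Slc22a3, chr17:12726791-12726819, minus strand: ggatatgcaaAGGACTTTGacttgacttc
Slc22a3, chr17:12726766-12726794, minus strand: cttctcctttTGAACTTTGggactaagca
Slc22a7, chr17:46749374-46749402, minus strand: ttcccacctcCAGAGTCCAagggcacatg
The matches at Slc22a3 lay 195 and 170 bp upstream, outside the interval over its start, while that at Slc22a7 lay 15 bp into the gene and inside its interval. Within 100 bases of the highest summit, 3 of the 76 intervals held an HNF1 match, against 2.71% of all intervals, and 5 held an HNF4 match, against 9.07%. Those at the intervals with HNF4 matches and at the HNF1 match in the last exon of Slc22a8 are shown, because they include the strongest interval of Slc22a2 and the second of Slc22a4.
Slc22a2 HNF4, chr17:12810238-12810274, plus strand: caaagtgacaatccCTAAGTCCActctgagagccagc
Slc22a3 HNF4, chr17:12671904-12671940, minus strand: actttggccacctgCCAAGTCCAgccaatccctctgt
Slc22a4 HNF4, chr11:53895211-53895247, minus strand: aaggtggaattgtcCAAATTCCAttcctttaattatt
Slc22a8 HNF4, chr19:8575243-8575279, plus strand: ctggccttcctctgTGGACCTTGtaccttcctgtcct
Slc22a8 HNF4, chr19:8576762-8576798, plus strand: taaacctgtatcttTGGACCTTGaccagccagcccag
Slc22a8 HNF1, chr19:8588883-8588923, plus strand: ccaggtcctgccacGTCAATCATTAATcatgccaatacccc
The Slc22a2 match stood in the 14.7-fold interval, the Slc22a4 match in the 23.4-fold interval, and both Slc22a8 HNF4 matches, which share the same 9 letters, in intervals of 4.32-fold and 4.91-fold. The other HNF1 matches were at intron 1 of Slc22a3, 2.62-fold, and intron 1 of Slc22a13, 2.03-fold. Of the 26 intervals of at least 5-fold at the transporter genes, 2 held an HNF4 match, against 11.8% of all intervals of that height. For HNF1 it was 1 of 26, against 5.83%. A match of letters does not show that a factor is bound. Because the methods give the read shift without a minus sign, summits may lie off the cuts. The windows around them may then not be centred on the cuts.

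**Figure D3:**
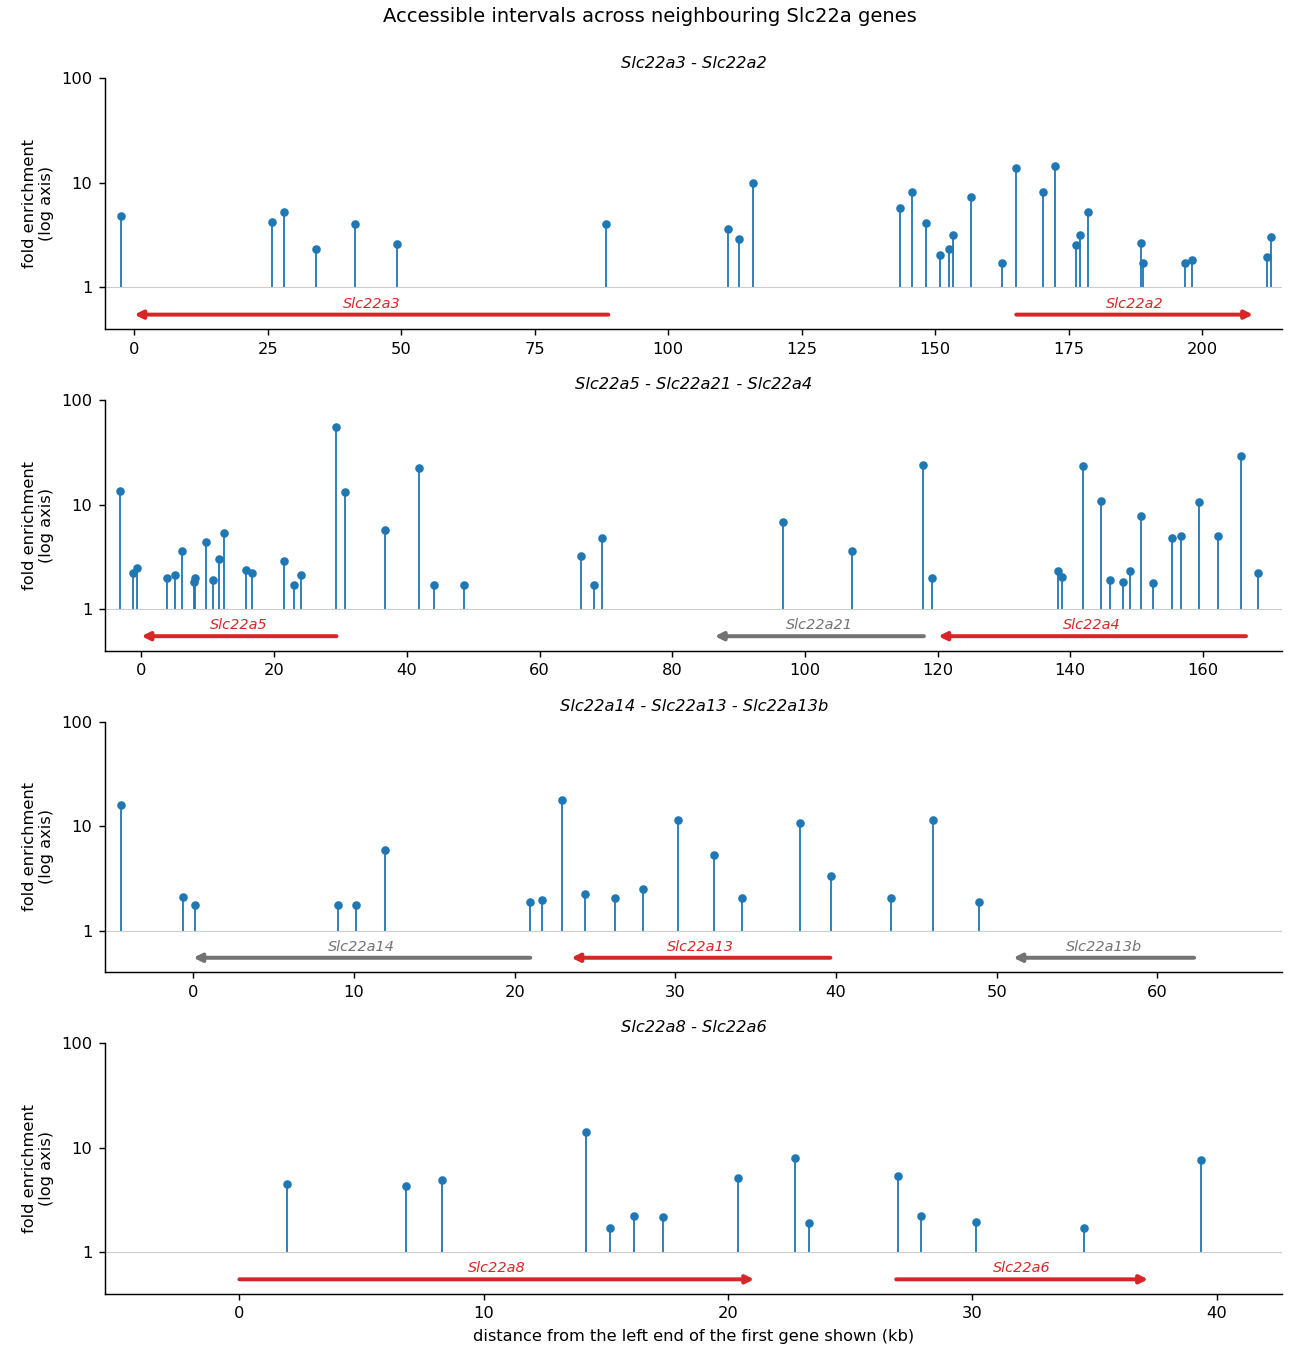
Fold enrichment of each interval (log axis) by the position of its highest summit in kb from the left end of the first gene, for 4 groups of neighbouring Slc22a genes. Arrows are the genes in the direction of transcription, red for the 9 genes and grey for their neighbours. The 55.6-fold interval over the Slc22a5 start is the highest shown, and the 17.8-fold interval between Slc22a14 and Slc22a13 lies next to the end of Slc22a13.

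The Slc22a genes lie in groups, and intervals were found between the genes of all 6 neighbouring pairs described. The starts of Slc22a3 and Slc22a2 on chromosome 17 face away from each other over 76404 bp. This stretch held 13 intervals, 5 of them of at least 5-fold, the strongest that over the Slc22a2 start and the next 9.89-fold.

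On chromosome 11, Slc22a5, Slc22a21 and Slc22a4 are transcribed in the same direction. Slc22a21 encodes a further carnitine transporter of rodents, OCTN3, and its start interval was 24.0-fold, near that of Slc22a4 at 29.2-fold. Only 2178 bp separate Slc22a21 and Slc22a4, with 2 intervals there, 24.0-fold over the Slc22a21 start and 1.96-fold. The 57029 bp between Slc22a5 and Slc22a21 held 9 intervals, of which 4 reached 5-fold. The strongest was that over the Slc22a5 start, and the next was 22.5-fold.

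On chromosome 9, the strongest interval of Slc22a13 lay in the 2553 bp between this gene and Slc22a14, 569 bp past the end of Slc22a13 and 1985 bp upstream of the Slc22a14 start. Among the 6 neighbouring pairs it was the only interval shared between the regions of both genes, so it cannot be given to 1 of the 2. The start interval of Slc22a14 itself was 1.90-fold. On the other side, 11389 bp away, Slc22a13b had 0 intervals in its region, while 4 intervals with a highest value of 11.5-fold lay between it and Slc22a13. How much of the sequence at Slc22a13b is unique in the genome was not computed, and only uniquely mapped reads were kept. What part this had in the absence of intervals at Slc22a13b was not tested. Slc22a8 and Slc22a6 on chromosome 19 follow each other over 5814 bp. This stretch held 3 intervals, of which 2 reached 5-fold, 7.99-fold at 4148 bp before the Slc22a6 start and the 5.30-fold interval over that start.

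Among 16 other protein-coding genes named Slc22a, 9 had a start interval and 6 one of at least 5-fold, with a median of 17.9-fold over the 9. The highest was Slc22a23 at 33.1-fold and the lowest Slc22a20 at 1.70-fold. Slc22a13b and Slc22a26 had no interval in their regions. Beside this stand 8 of 9 covered starts, 6 of them of at least 5-fold, and a median of 8.22-fold for the 9 transporter genes. The strongest interval of the region had a median of 14.7-fold at the 9 genes and 15.1-fold at the other family genes with an interval. The differences were not tested. For the other family genes, the share of sequence that is unique in the genome was not computed, and only uniquely mapped reads were kept. What part this had in their starts and regions without an interval was not tested either.

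The genes of 4 proteins that work beside these transporters had start intervals between 15.5-fold and 46.7-fold. Pdzk1, a scaffold that binds apical transporters, had 26.3-fold over its start. The apical cation exporter gene Slc47a1 (MATE1), which completes the secretion that OCT2 begins, had 15.5-fold, close to the 13.8-fold of Slc22a2. Slco4c1, a basolateral organic anion transporter, had 34.7-fold, and Abcc4 (MRP4), an apical exporter of organic anions, had 46.7-fold. All 4 were above each start of Slc22a2, Slc22a3, Slc22a6, Slc22a7, Slc22a12 and Slc22a13.

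**Figure D4:**
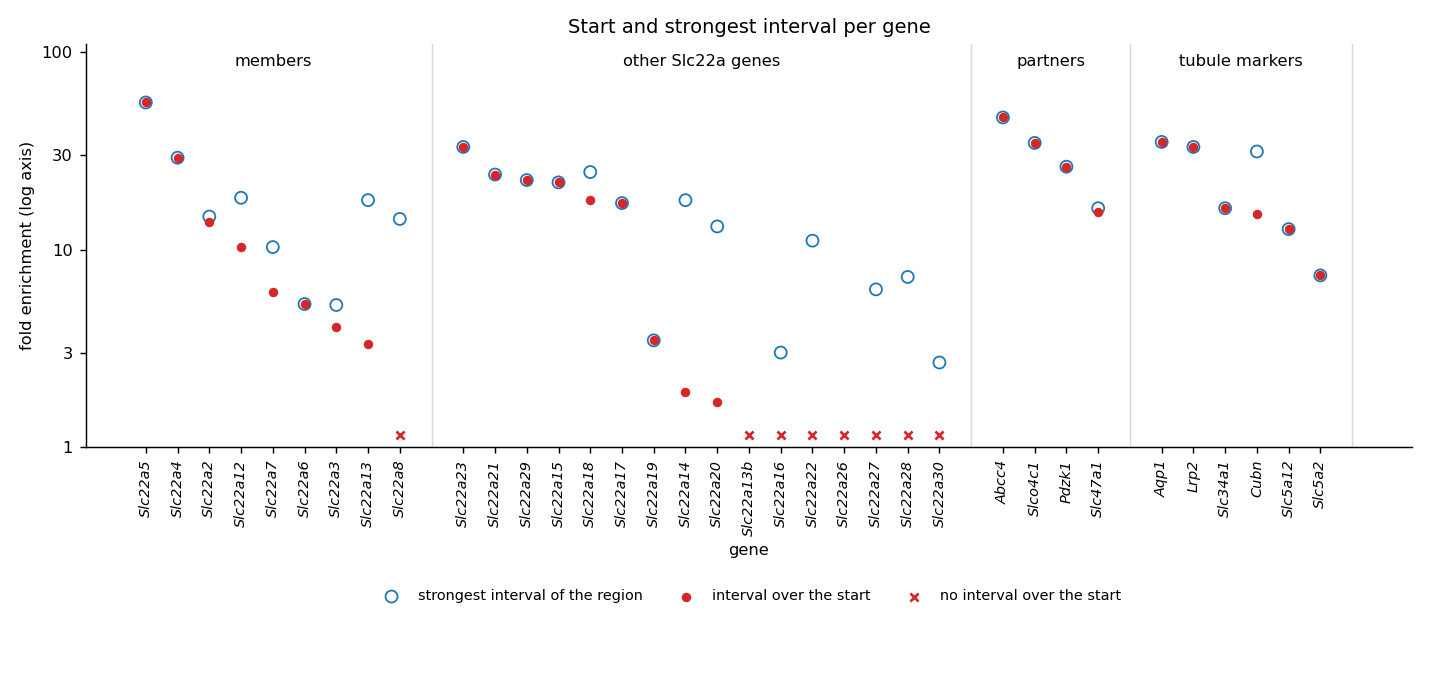
Fold enrichment (log axis) of the interval over the start (filled) and of the strongest interval of the region (open circle) for the 9 transporter genes, 16 other Slc22a genes, 4 partner genes and 6 proximal tubule markers. Crosses stand for genes with no interval over the start. Open circles stand far above the filled ones at Slc22a13 and at the other family genes Slc22a14 and Slc22a20.

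The labelled tissue was set beside marker genes. Of all protein-coding genes, 68.4% had a start interval and 61.7% one of at least 5-fold. The median over all start intervals was 31.6-fold, so start intervals at markers do not by themselves identify the tissue. All 6 proximal tubule markers had a start interval of at least 5-fold, from 7.40-fold at Slc5a2 to 35.1-fold at Aqp1, with a median of 15.7-fold. All 3 markers of the thick ascending limb and distal tubule also had one of at least 5-fold, from 8.38 to 20.8-fold. All 3 of the collecting duct had a start interval, from 3.54 to 28.4-fold, but only 1 reached 5-fold. A start interval was present in 1 of 2 podocyte, 1 of 2 endothelial and 0 of 2 immune markers, and in 3 of 6 markers of other organs, at 2.49 to 8.05-fold. With the start of the canonical transcript in place of the outermost start, it was present in 2 of 2 podocyte markers, with 3.14-fold at Nphs1, in 1 of 2 immune markers, with 1.90-fold at Ptprc, and in 2 of 6 markers of other organs. Away from the start, some of these genes had stronger intervals, 11.9-fold at Ptprc, 14.8-fold at Pecam1, 12.8-fold at Neurod1, 16.8-fold at Gfap and 21.0-fold at Alb, within the range of the strongest intervals of the 9 transporter genes.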

How the data were processed

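By the genotype label, the ATAC-seq libraries of kidney cortex came from 3 WT and 3 Acly cKO mice. The values used are of a pooled peak call and were not grouped by genotype. By the methods, reads were trimmed (fastp) and mapped to mm39, which is GRCm39, with Bowtie2 2.3.4.3. Duplicates and reads without a unique position were dropped. MACS3 3.0.0 then called peaks and their summits at a q threshold of 0.05, and bedtools 2.29.1 took out the blacklist and chromosomes outside the standard set. The methods give the read shift without a minus sign, with which reads move away from the cut site, so summits may lie off the cuts.

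The deposited peak list gives, as the authors' caller wrote them, the fold enrichment (a ratio), the -log10 p and -log10 q, a score of 10 times the -log10 q, and the position of the summit in the interval. The deposited summits before filtering give the same -log10 q. The number of columns of single libraries is 0, so replicates could not be compared, and fold enrichments were not tested.

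Rows with the same coordinates were taken as 1 interval, represented by its summit of highest -log10 q. Positions are counted from 1. The gene start is the outermost start in GENCODE M39, and exons and introns are those of the Ensembl canonical transcript. A percentile is the share of genes with a lower or equal value. A share that a gene is said to be above therefore counts ties and the gene itself. Sequences were read from GRCm39. The named genes are the 9 members with their strongest, start and up to 3 further intervals, adjacent family genes, the highest and lowest of the family, and the partner genes, and 1 family gene is not reported here. The members and lists were chosen with earlier results of these data known. The alternatives changed the q and fold limits, the region, the start, the CpG limit and the mismatches. The scripts were tested on simulated intervals, starts and motifs. Python 3.11.15, numpy 2.4.6, pandas 2.3.3 and matplotlib 3.10.9 were used.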

Additional observations from a re-analysis of the deposited data

How the results depend on the processing

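Of 31 values recomputed under an alternative, 20 stayed within 1.5 times the reported value or equalled it. The number of intervals at the 9 genes, 76 as reported, was 44 at a q under 1e-05, 26 at a fold enrichment of at least 5 and 239 when summits in the regions were counted, and between 66 and 107 under the other alternatives. The median fold enrichment over the starts, 8.22 as reported, was 6.38 with the summit nearest the start and 10.3 with the strongest interval within 1 kb. For HNF1 the number of starts with a match, 0 as reported, was 2 with 1 mismatch more. For HNF4, 2 as reported, it was 0 with 1 mismatch fewer, 7 with 1 mismatch more and 0 in the window around the summit of the start interval. Around the highest summits, an alternative added after the data were seen, 1 mismatch fewer gave 0 intervals for either factor, and 1 mismatch more gave 11 for HNF1 and 44 for HNF4. The number of genes with a start interval was 6 to 8 and that of CpG-poor starts 7 or 8 under all alternatives. Each alternative changes by construction which intervals, summits or letters are counted. No paired analysis was possible because the files hold no column of a single library. For the same reason no replicate could be left out, and the depth of each library is unknown.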
